A study of Mus musculus with 6 samples.

Results

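The serpins are a superfamily of proteins named for the serine protease inhibitors among them. All deposited genes whose symbol begins with Serpin, a clade letter from a to i and a digit were taken, which gave 69 rows of the 34745 in the table and 68 symbols, since Serpinb10 is listed under 2 identifiers. Of these rows, 31 were detected, meaning 10 or more read counts in at least 3 libraries, 16 had some counts but fewer than that, and 22 were at 0 in every library. The rule uses symbols only, so the serpin-like angiotensinogen gene Agt is outside it.

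RNA was measured by RNA sequencing in 6 mouse libraries, 3 labelled HKO (Sox9HKO in the series text) and 3 labelled WT (Sox9f/f, a floxed Sox9 allele). The C57BL/6 mice were 12 weeks old and the time point was 48 h after PHx (partial hepatectomy), an operation that takes out part of the liver and makes the rest regrow. No group without surgery is included. The labels give liver as the tissue and hepatocyte as the cell type, and no source used here names the agent or promoter that deletes Sox9 in HKO. Nothing in the labels ties the libraries to separate mice, so the p-values reflect only how these libraries vary among themselves, which may be technical.

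An inhibitory serpin presents an exposed loop as bait to a protease. When the protease cuts the loop, the serpin snaps into a new shape and traps the enzyme in a covalent complex, so each molecule works once. The liver makes most of the serpins that circulate in blood, where they restrain elastase, thrombin, plasmin and complement, and some members have lost inhibition and carry hormones or fold collagen instead. Clade A holds the antitrypsin and antichymotrypsin genes, clade B the serpins that stay inside cells, and clades C to I mostly single genes of clotting, fibrinolysis, complement and matrix.

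The libraries held 16659778 to 21168233 counts. Levels within a gene are given as CPM, read counts brought to equal library size with TMM factors (trimmed mean of M values). Sox9, the gene named in the genotype, was at 6.34, 4.30 and 4.79 CPM in HKO 1, 2 and 3 and at 6.94, 13.7 and 11.4 CPM in WT 1, 2 and 3. It was lower in HKO, with a log2 fold change of -1.05 (SE 0.27, edgeR quasi-likelihood test, Benjamini-Hochberg adjusted p = 0.0284), and it was not called when HKO 2 was left out (-0.94, adjusted p = 0.0503). HKO 2 stood apart from the other libraries. It held 1247 counts of Xist against 2 to 6 elsewhere, beside counts of the Y-linked gene Ddx3y of 518 to 1186 in all 6, and mitochondrial genes took 25.9% of its counts against 12.1% to 16.3%. The summed level of 11 pancreatic acinar marker genes was 687 CPM in HKO 2 and 3.65 to 5.37 CPM in the other 5, with Prss1 at 0 in all, and that of 7 mesothelial marker genes was 20.6 CPM against 0.444 to 1.28 CPM. HKO 2 was also highest for 14 stellate cell and fibroblast marker genes (615 CPM against 104 to 174 CPM). The same held for 13 endothelial marker genes (704 CPM against 142 to 285 CPM). The 10 hepatocyte marker genes summed to 78592 to 83615 CPM in HKO and 82690.5 to 101626 CPM in WT. Even so, 3 of these 10 were higher in HKO and none lower, with a median log2 fold change of 0.37. Of all genes tested, 12.1% were higher in HKO and 11.2% lower. All 13 tested macrophage marker genes of 15 were higher in HKO. The 3 tested B and plasma cell marker genes were higher too (summed 20.2 to 27.5 CPM against 1.11 to 2.36 CPM), and 3 of 4 tested biliary marker genes, Sox9 among them, were lower (93.2 to 106.9 CPM against 141.7 to 297 CPM). The part of these cell types in the serpin values was not tested.

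In 30 of the 31 detected serpins (Serpinb1a had too few counts for the test), 10 were called at an adjusted p below 0.05, 3 higher in HKO and 7 lower. Those higher included Serpina7 and Serpinb6a, and the 7 lower were Serpina1e, Serpina1a, Serpina3n, Serpina3m, Serpina3c, Serpina10 and Serpinf2. This is 33.3% of the tested serpins, beside 23.2% of all 12556 genes tested. By direction, 10% were higher, beside 12.1% of all genes, and 23.3% were lower, beside 11.2%. The CPM of the groups did not overlap in 13 of the 30 (43.3%), near the 44.2% of all genes. A call together with a change of at least 2-fold was made for 6 serpins, beside 8.63% of all genes. The median log2 fold change was -0.20 over the 30 serpins, -0.40 over the 18 of clade A and 0.02 over all genes tested. Without HKO 2, 5 serpins were higher and 8 lower, beside 12.5% and 12.2% of the 12716 genes tested in that fit, Serpina6 and Serpine2 joining the higher, Serpinb8 and Serpinh1 joining the lower and Serpina3m leaving them.

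**Figure D1:**
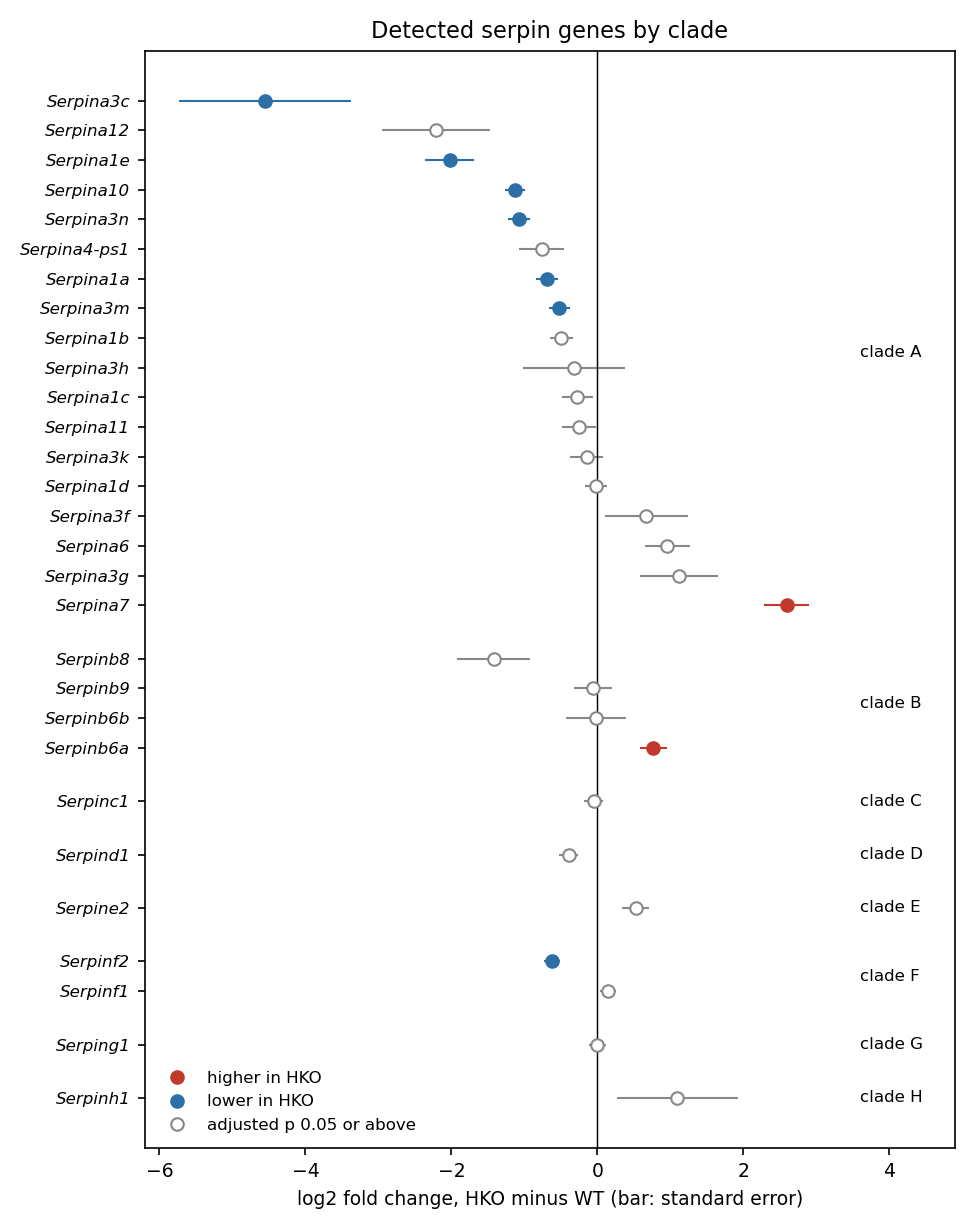
Log2 fold change of 29 tested serpins, HKO minus WT, grouped by clade, with bars for the standard error. Filled points are called genes, 2 higher and 7 lower, with an adjusted p below 0.05 (edgeR quasi-likelihood test, Benjamini-Hochberg adjustment), and 6 of the 7 lower genes are in clade A.

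Serpin mRNA was abundant in every library, with a lower summed level in HKO, on which no test was made. Serpin genes took 3.53%, 2.49% and 3.13% of all counts in HKO 1, 2 and 3 and 3.95%, 4.91% and 4.72% in WT 1, 2 and 3, so the groups did not overlap. Their summed level was 30382 ± 3920.4 CPM in HKO against 45469 ± 7219 CPM in WT (SD, n = 3), so HKO was at 66.8% of WT. Clade A made up 86.5% to 87.8% of the serpin counts in HKO and 88.9% to 90.9% in WT. One gene, Serpina1e, accounted for 50.9% of the difference between the summed means, Serpina3n for 13.2% and Serpina1b for 13.1%. In bulk RNA, fewer cells of a type and less RNA per cell cannot be told apart, and the summed level holds reads of near-identical genes.

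**Figure D2:**
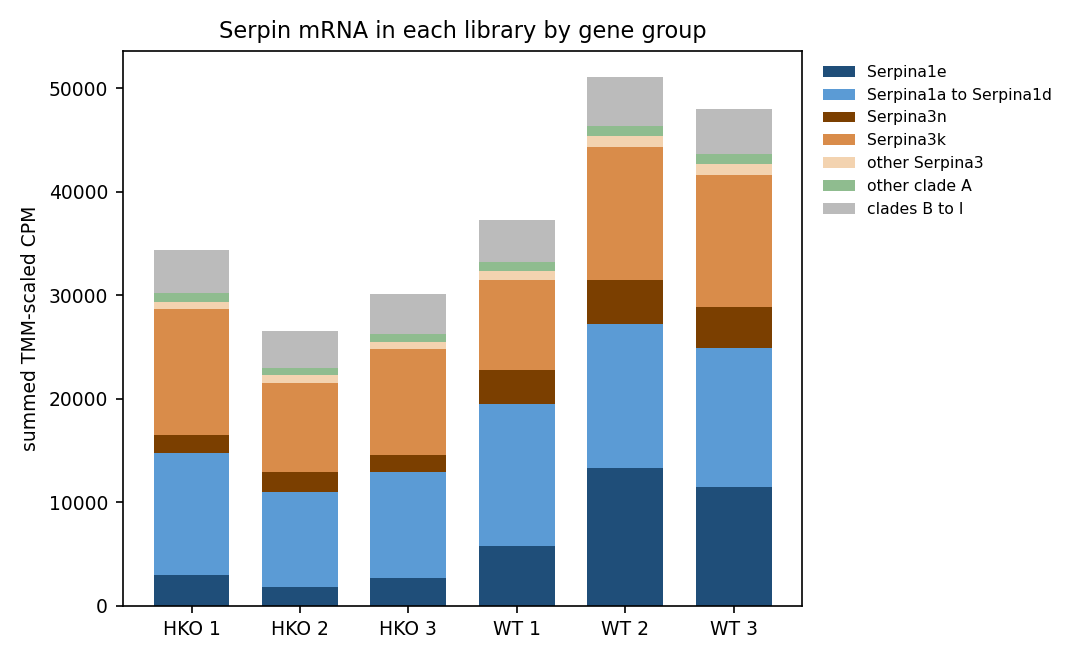
Summed TMM-scaled CPM of all serpin genes in each of the 6 libraries, stacked by gene group. The bars of HKO 1, 2 and 3 reach 34407, 26575 and 30165 CPM, those of WT 1, 2 and 3 reach 37328, 51089 and 47990.4 CPM, and the dark blue Serpina1e segment differs most between the groups.

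Levels of different genes were compared on the deposited FPKM scale, which divides by gene length. Over all 6 libraries, 13 detected serpins had a mean of 100 FPKM or more and 10 were below 2 FPKM. The order at the top differed between the groups. In HKO, Serpina3k, the kallistatin-like contrapsin, had the highest mean at 5054 FPKM, followed by Serpina1b at 1735, Serpina1d at 1500.4, Serpina1e at 1388, Serpina1c at 1292, Serpina3n at 874 and Serpina1a at 679 FPKM. In WT, Serpina1e at 5535 and Serpina3k at 5521.5 FPKM came first, with overlapping ranges of 3360 to 7021 and 4475 to 6112 FPKM. Serpina1b followed at 2441, then Serpina3n at 1833, Serpina1c at 1542, Serpina1d at 1506 and Serpina1a at 1092 FPKM. The ranges of Serpina1b, Serpina1d, Serpina1e and Serpina1c overlapped from neighbour to neighbour in HKO, as did those of Serpina3n, Serpina1c and Serpina1d in WT. After these, over all 6 libraries, came Serping1 at 419, Serpina3m at 375 and Serpinf2 at 199.8 FPKM. Antithrombin (Serpinc1) was at 110.4 FPKM, a value that rests on an implied gene length of 10752 bases, against 1361 to 2804 bases for Serpina1a to Serpina1e. The place of Serpina1a depends on its length too, 2465 bases against 1361 for Serpina1c and 1394 for Serpina1d. By mean CPM it lay above both in WT (2687 against 2111 and 2107). In HKO it lay below both (1670 against 1750 and 2086).

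Serpina1 encodes alpha-1-antitrypsin, the main plasma inhibitor of neutrophil elastase, and the mouse has several near-identical copies side by side. The transcripts of Serpina1a to Serpina1e were 96.1% to 98.3% identical over the aligned 1332 to 1570 bases, so reads can be split between them and the value of each single copy is uncertain. A stretch upstream of each start is shown because the copies share it almost letter for letter while their levels moved apart between the groups. The windows come from RefSeq on GRCm38.p6 at chr12:103863625-103863747 (Serpina1a), chr12:103738200-103738322 (Serpina1b), chr12:103904962-103905084 (Serpina1c), chr12:103773634-103773756 (Serpina1d) and chr12:103956960-103957082 (Serpina1e). All are on the minus strand, 123 bases, printed 5′ to 3′, and they end 6, 11, 12, 1 and 63 bases before the RefSeq start in that order. The RefSeq starts of Serpina1b and Serpina1e lie inside the longer gene models of the deposited table. Capitals mark GTTAAT, a part of the site bound by the hepatocyte factor HNF1.
Serpina1a: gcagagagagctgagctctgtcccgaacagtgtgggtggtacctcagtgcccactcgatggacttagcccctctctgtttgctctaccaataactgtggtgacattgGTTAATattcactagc
Serpina1b: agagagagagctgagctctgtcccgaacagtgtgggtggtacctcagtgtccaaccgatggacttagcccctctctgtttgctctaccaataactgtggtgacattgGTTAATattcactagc
Serpina1c: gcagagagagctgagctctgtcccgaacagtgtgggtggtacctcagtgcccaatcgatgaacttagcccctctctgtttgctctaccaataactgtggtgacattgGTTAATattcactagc
Serpina1d: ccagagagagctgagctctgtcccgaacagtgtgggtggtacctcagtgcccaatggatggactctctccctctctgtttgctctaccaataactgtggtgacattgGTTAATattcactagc
Serpina1e: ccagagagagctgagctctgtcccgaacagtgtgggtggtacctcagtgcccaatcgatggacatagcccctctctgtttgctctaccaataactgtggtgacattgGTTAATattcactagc

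These windows were 92.7% to 98.4% identical between copies. They were cut around a string that all copies share and that contains GTTAAT. Its presence in each printed window, and part of the identity, follow from that choice. GTTAAT, searched on both strands in the 250 bases before each start, was in 8 of the 22 detected serpins with a RefSeq window (all 5 Serpina1 copies, Serpina3c, Serpina7 and Serpinb8) and in 6.43% of all 32851 windows. Here and for the motifs below, a serpin counted if any of its windows matched, and 4 serpins had several. The shares of all windows count each window by itself. As near-copies, the 5 Serpina1 windows are not separate observations. A match is a run of letters and was not tested as a binding site.

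Of the 5 expressed copies, 2 were lower in HKO and 3 were not called. Serpina1e (ENSMUSG00000072849, chr12:103946931-103958975, minus strand) was at 3002, 1799.6 and 2699.8 CPM in HKO 1, 2 and 3 and at 5773, 13262 and 11489.5 CPM in WT 1, 2 and 3. All HKO libraries lay below all WT libraries, and within WT the value of WT 1 lay far below the other pair. HKO stood at 24.6% of WT, a log2 fold change of -2.02 (SE 0.34, edgeR adjusted p = 0.00577). Serpina1a (ENSMUSG00000066366, chr12:103853589-103863562, minus strand) was at 1982, 1506 and 1522 CPM in HKO and at 2811, 2583 and 2666 CPM in WT, again without overlap. Its log2 fold change was -0.69 (SE 0.15, edgeR adjusted p = 0.0153), and it was no longer called without HKO 3 (adjusted p = 0.0711) and without WT 3 (0.0654).

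Serpina1b, the copy with the highest mean FPKM in HKO and the second highest in WT, missed the threshold. It was at 5304, 4389.8 and 4867 CPM in HKO and at 7419.5, 6523 and 6527 CPM in WT, so its groups did not overlap, with a log2 fold change of -0.49 (SE 0.15, edgeR adjusted p = 0.0543). It passed with DESeq2 (adjusted p = 0.00102) and with limma-voom (adjusted p = 0.0304). Serpina1d was at 2282, 1854 and 2121 CPM in HKO and at 1839, 2373 and 2108 CPM in WT, overlapping throughout, with a log2 fold change of -0.01 (SE 0.15, edgeR adjusted p = 0.955). Serpina1c was at 2149.5, 1404 and 1695 CPM in HKO and at 1678, 2512 and 2143 CPM in WT, also overlapping, with a log2 fold change of -0.27 (SE 0.21, edgeR adjusted p = 0.373). Exons of Serpina1c overlap an antisense transcript, B430119L08Rik, from which its reads cannot be told apart.

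The mix of copies differed between the groups as well as their sum. Serpina1e held 20.4%, 16.4% and 20.9% of the Serpina1a to Serpina1e counts in HKO 1, 2 and 3 and 29.6%, 48.7% and 46.1% in WT 1, 2 and 3. Serpina1d held 15.5% to 16.9% in HKO and 8.45% to 9.42% in WT, and Serpina1c 12.8% to 14.6% and 8.60% to 9.22%. In WT 1 the largest share was that of Serpina1b (38.0%), as in the 3 HKO libraries (36.0% to 40.1%), whereas in WT 2 and WT 3 it was that of Serpina1e. With all Serpina1 counts summed to 1 row, which no longer depends on how reads were split between copies, the level was 12859.5 ± 1883 CPM in HKO against 23903 ± 3968 CPM in WT (SD, n = 3). That row was lower in HKO, with a log2 fold change of -0.89 (SE 0.22, edgeR adjusted p = 0.0238). Serpina1f was at 0 in every library.

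**Figure D3:**
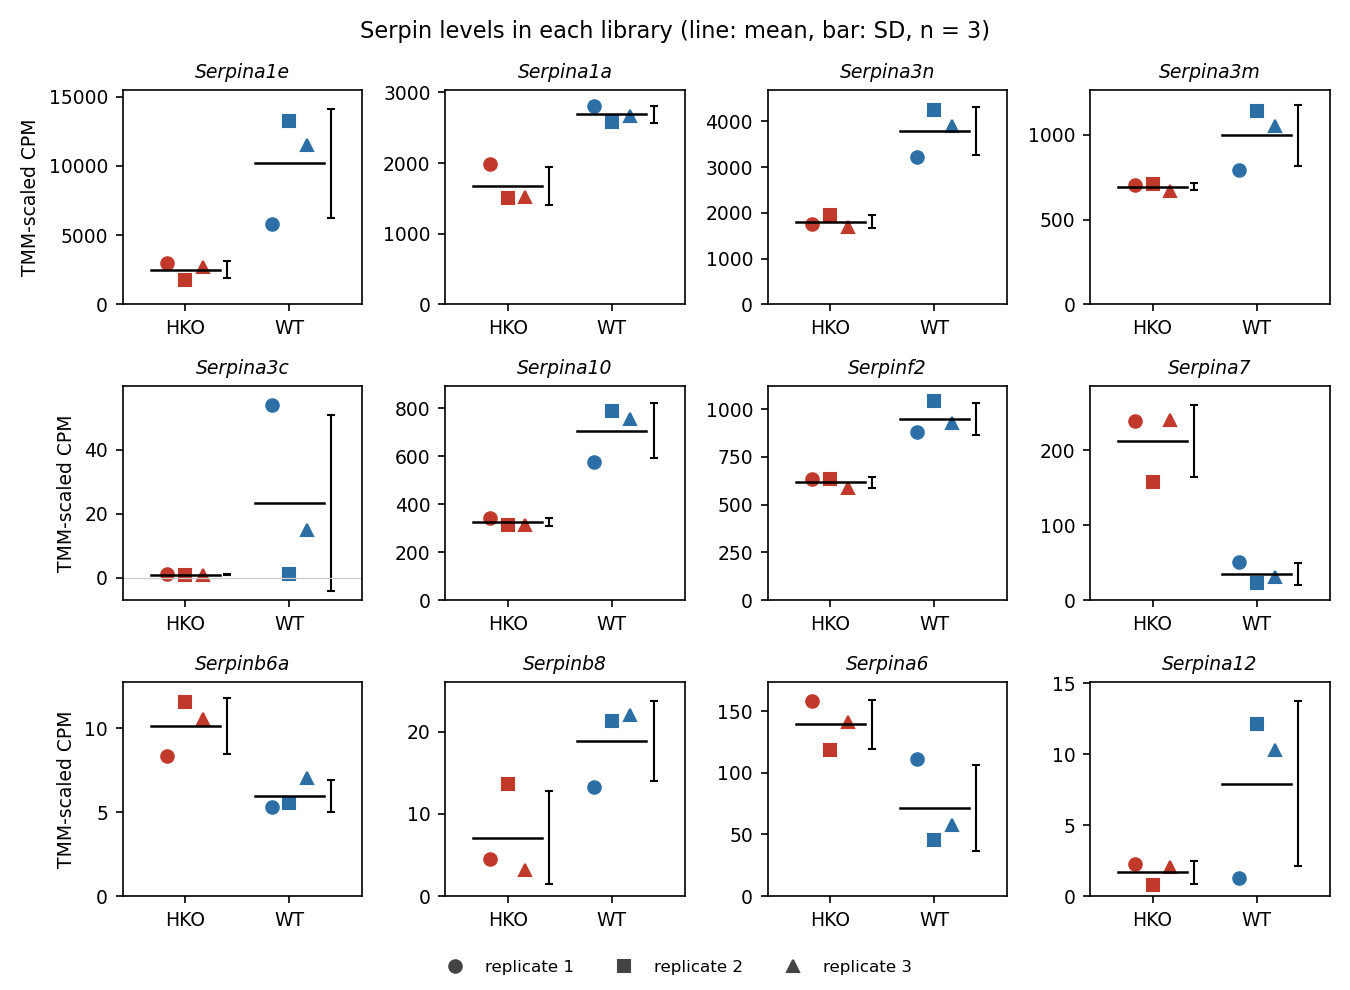
TMM-scaled CPM of 12 serpins in each library, one panel per gene with its own axis, and with the mean (line) and SD (bar, n = 3) of each group. In the Serpina1e and Serpina12 panels WT 1 sits far below WT 2 and WT 3, and in the Serpina3c panel it sits far above them, while the 3 HKO libraries lie close together in the Serpina3n, Serpina10 and Serpinf2 panels.

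The Serpina3 genes are the mouse expansion of alpha-1-antichymotrypsin, and several are acute phase genes. Serpina3n (ENSMUSG00000021091, chr12:104406729-104414329, plus strand), a secreted inhibitor of leukocyte proteases such as cathepsin G and granzyme B, was at 1760.4, 1966 and 1702 CPM in HKO and at 3229, 4258 and 3909 CPM in WT. The groups lay well apart, and HKO stood at 47.6% of WT, a log2 fold change of -1.07 (SE 0.15, edgeR adjusted p = 0.00307). Serpina3k (ENSMUSG00000058207, chr12:104338486-104346144, plus strand) was at 12177, 8652 and 10223 CPM in HKO and at 8709, 12789 and 12782 CPM in WT. Its groups overlapped, because WT 1 lay within the HKO range, and it was not called (log2 fold change -0.14, SE 0.23, edgeR adjusted p = 0.683). Serpina3m (ENSMUSG00000079012, chr12:104338486-104394257, plus strand) was at 705, 707 and 670.4 CPM in HKO and at 795, 1142 and 1049.9 CPM in WT, with no overlap and a log2 fold change of -0.52 (SE 0.15, edgeR adjusted p = 0.0391). This call was lost when any library but WT 1 was left out (adjusted p = 0.0504 to 0.140). The exons of Serpina3k and Serpina3m overlap on the same strand and their transcripts are 91.4% identical, so reads could move between them.

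Serpina3c (ENSMUSG00000066361, chr12:104146382-104153870, minus strand) differed more within WT than any other called serpin. It was at 1.24, 0.872 and 0.866 CPM in HKO 1, 2 and 3 and at 54.1, 1.07 and 14.9 CPM in WT 1, 2 and 3, so WT 2 lay within the HKO range. Its log2 fold change was -4.55 (SE 1.18, edgeR adjusted p = 0.0288). Without WT 1 it was -3.01 (adjusted p = 0.0649), limma-voom gave -3.26 (adjusted p = 0.344), and the call was also lost without HKO 1, HKO 3 or WT 3 (adjusted p = 0.0626 to 0.0911). Mup17, a major urinary protein gene outside the serpins, had the same order within WT, at 346 CPM in WT 1, 19.8 in WT 2 and 117 in WT 3 against 3.37 to 8.55 CPM in HKO. Mup17 was chosen after its values were seen, and a link between the genes was not tested.

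The upstream stretches of Serpina3n and Serpina3c are shown because they are close copies, 92.7% identical over 247 aligned bases, in front of the most and the least abundant of the 3 Serpina3 genes called lower. They are the 250 bases before each RefSeq start on GRCm38.p6, 5′ to 3′, at chr12:104406458-104406707 (plus strand) and chr12:104153873-104154122 (minus strand). Capitals mark GTTAAT read on either strand, which was found in the Serpina3c window and not in the Serpina3n window.
Serpina3n: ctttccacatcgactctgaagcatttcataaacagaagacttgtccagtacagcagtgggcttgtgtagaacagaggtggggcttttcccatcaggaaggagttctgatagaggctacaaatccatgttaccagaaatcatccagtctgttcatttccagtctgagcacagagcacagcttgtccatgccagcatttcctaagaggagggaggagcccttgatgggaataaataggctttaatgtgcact
Serpina3c: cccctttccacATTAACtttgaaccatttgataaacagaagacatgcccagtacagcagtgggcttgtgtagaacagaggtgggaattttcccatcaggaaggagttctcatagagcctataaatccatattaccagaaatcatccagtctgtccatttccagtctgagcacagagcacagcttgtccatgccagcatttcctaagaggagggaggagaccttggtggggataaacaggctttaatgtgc

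The motif bound by STAT factors, TTCNNNGAA on either strand, was in neither of these windows. It was in those of Serpina11, Serpina3f, Serpina3g and Serpinb6a and in 7.02% of all windows. The SOX-type hexamer ACAAAG was in the windows of 7 of the 22 detected serpins and in 16.5% of all windows, and ACAATG was in that of Serpinf1 and in 10.7% of all windows. Among the called serpins with a window, ACAAAG was in those of Serpina7 and Serpinb6a. The called genes Serpina10 and Serpina3m were not searched.

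The remaining detected Serpina3 genes were weakly expressed, and HKO 2 held the highest value of each. Serpina3g, an intracellular inhibitor of lysosomal cathepsins, was at 3.49, 14.1 and 4.28 CPM in HKO 1, 2 and 3 and at 2.28 to 4.27 CPM in WT (log2 fold change 1.12, SE 0.54, edgeR adjusted p = 0.164), and at 0.23 on the log2 scale without HKO 2. Serpina3f was at 1.504, 5.87 and 1.504 CPM in HKO and 1.33 to 2.42 CPM in WT, and its log2 fold change of 0.67 became -0.29 without HKO 2, not called either way. The pseudogene Serpina3h was at 0.322, 1.34 and 0.228 CPM in HKO and 0.449 to 1.056 CPM in WT and was not called. HKO 2 is the library with the most pancreatic, mesothelial, stellate cell, endothelial and Xist reads, and the part of these in the values was not tested. With the counts of the Serpina3 genes summed to 1 row, the log2 fold change was -0.34 (SE 0.21, edgeR adjusted p = 0.286).

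Clade A also holds the genes of 2 hormone carriers, of which 1 was called. Serpina7 (ENSMUSG00000031271, chrX:139079257-139085236, minus strand) encodes thyroxine-binding globulin, a serpin without protease inhibition that carries thyroid hormone in blood. It was at 239.3, 157.3 and 239.9 CPM in HKO and at 51.1, 23.1 and 31.2 CPM in WT, and the lowest HKO library lay well above the highest WT library. HKO stood at 6.04 times WT, a log2 fold change of 2.59 (SE 0.30, edgeR adjusted p = 0.00134), the largest rise among the serpins tested. Serpina7 was the sole clade A gene called higher and the sole detected one that is not on chromosome 12.

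Serpina6, which encodes corticosteroid-binding globulin, the carrier of glucocorticoids, was at 158.5, 118.9 and 140.9 CPM in HKO and at 111.3, 45.6 and 57.7 CPM in WT. The groups did not overlap, but the edgeR adjusted p was 0.0559 (log2 fold change 0.96, SE 0.31), while DESeq2 (adjusted p = 0.00448) and limma-voom (0.0365) called it. WT 1 lay near the HKO range, and without it the log2 fold change was 1.42 (SE 0.17, edgeR adjusted p = 0.00321). The glucocorticoid receptor gene Nr3c1 was lower in HKO, at 44.1 ± 6.76 CPM against 62.1 ± 0.972 CPM (SD, n = 3; log2 fold change -0.49, edgeR adjusted p = 0.0255). Tat, a liver gene that glucocorticoids induce, was higher, at 2468 to 2787 CPM against 745 to 761 CPM (log2 fold change 1.82, edgeR adjusted p = 0.000194).

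Serpina10 (ENSMUSG00000061947, chr12:103614786-103631444, minus strand) encodes the protein Z-dependent inhibitor of coagulation factor Xa. It was at 343, 315.5 and 314 CPM in HKO and at 574, 790.2 and 756 CPM in WT. The HKO libraries were tightly grouped below all WT libraries, at 45.9% of WT and a log2 fold change of -1.12 (SE 0.14, edgeR adjusted p = 0.00165). F10, the gene of that factor, was not called, at 355 to 446 CPM in HKO and 409 to 499 CPM in WT (log2 fold change -0.20, SE 0.13, edgeR adjusted p = 0.290).

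Serpina12, which encodes the adipokine vaspin, split the WT libraries. It was at 2.26, 0.756 and 2.05 CPM in HKO and at 1.28, 12.1 and 10.3 CPM in WT 1, 2 and 3, so WT 1 lay within the HKO range. The log2 fold change was -2.21 (SE 0.75, edgeR adjusted p = 0.0675), and without WT 1 it was -2.73 (SE 0.39, edgeR adjusted p = 0.00597). Serpina11 was at 49.2 to 65.6 CPM in HKO and at 96.3, 53.4 and 53.8 CPM in WT and was not called (edgeR adjusted p = 0.480), with exons that overlap the predicted gene Gm28577. The pseudogene Serpina4-ps1 was at 12.2 to 23.4 CPM in HKO and 23.5 to 46.2 CPM in WT and was not called (edgeR adjusted p = 0.111). In these last genes WT 1 was the highest of the 6 libraries, whereas over all 31 detected serpins it lay above both other WT libraries in 10 and below both in 20.

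All clade A genes but Serpina7 lie in 1 cluster, chr12:103614786-104414329 on GRCm38, 799.5 kb long. It holds 28 serpin rows, of which 17 were detected, 6 were lower in HKO and 11 were not called. Of all genes tested, 11.2% were lower, and their median log2 fold change was 0.02. Within the cluster, the log2 fold change was below 0 in 14 of the 17 and above 0 in 3, Serpina6, Serpina3f and Serpina3g. Of the 10 detected on the minus strand 4 were lower, and of the 7 on the plus strand 2 were lower. Neighbours differed: Serpina10, called lower, lies next to Serpina6, which was at 195% of the WT mean, and Serpina1d, at 99.0%, lies within the annotated span of Serpina1b, at 71.1%, and next to Serpina1a, at 62.2%. The genes share a locus and paralogous reads, so they are not independent of one another.

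**Figure D4:**
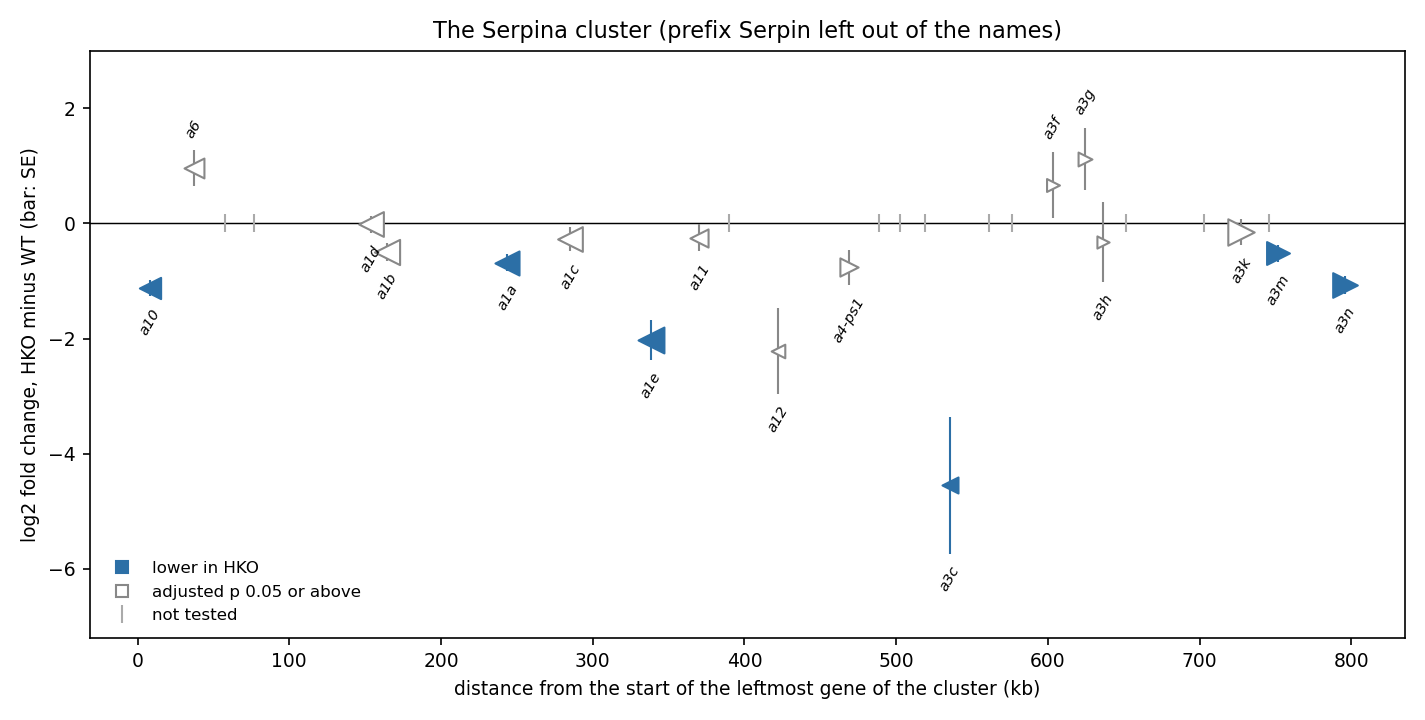
Log2 fold change, HKO minus WT, of the serpins of the chromosome 12 cluster against distance in kb from the first gene, with bars for the standard error, arrowheads along the direction of transcription and marker size rising with mean FPKM. The 6 filled markers are the genes lower in HKO, from Serpina10 at the left end to Serpina3n at the right end, and ticks on the zero line are the 11 rows not tested.

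The circulating inhibitors of clotting, complement and fibrinolysis outside clade A are mostly single-gene clades. Serpinf2 (ENSMUSG00000038224, chr11:75431732-75439591, minus strand) encodes alpha-2-antiplasmin, the fast inhibitor of plasmin. It was at 635, 632 and 585.5 CPM in HKO and at 882, 1043 and 925 CPM in WT, without overlap. At 64.96% of the WT mean, its log2 fold change was -0.62 (SE 0.11, edgeR adjusted p = 0.00732). Its neighbour Serpinf1, which encodes pigment epithelium-derived factor, a serpin that does not inhibit proteases, was at 257.5 to 322 CPM in HKO and 264 to 278 CPM in WT and was not called (log2 fold change 0.14, SE 0.11, edgeR adjusted p = 0.385).

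Serpinc1 encodes antithrombin, the heparin-activated inhibitor of thrombin and factor Xa. It was at 1323.5, 1021 and 1156 CPM in HKO and at 1169.8, 1266 and 1179 CPM in WT, overlapping, with a log2 fold change of -0.05 (SE 0.13, edgeR adjusted p = 0.824). Its exons overlap Zbtb37 on the other strand. Serping1 encodes the C1 inhibitor of complement and of plasma kallikrein. It was at 1294, 1068 and 1196 CPM in HKO and at 1144, 1233 and 1173 CPM in WT, with a log2 fold change of 0.00 (SE 0.12, edgeR adjusted p = 0.987). Neither gene was called, and HKO 2 was the lowest library for both. Serpind1, which encodes heparin cofactor II, another thrombin inhibitor, was at 574, 509 and 561.5 CPM in HKO and at 615.5, 811 and 731 CPM in WT. Its groups did not overlap but it was not called (log2 fold change -0.39, SE 0.13, edgeR adjusted p = 0.0624), and without WT 1 it was lower (-0.50, adjusted p = 0.0298).

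In clade E, Serpine2, which encodes protease nexin 1, an inhibitor of thrombin and other serine proteases, was at 30.8, 19.7 and 28.7 CPM in HKO and at 20.2, 16.2 and 18.7 CPM in WT (log2 fold change 0.52, SE 0.18, edgeR adjusted p = 0.0704). HKO 2 lay within the WT range, and without it Serpine2 was higher in HKO (0.70, SE 0.14, edgeR adjusted p = 0.00846). Serpine3 was at 0 everywhere.

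Clade B serpins act inside cells and were sparse in these libraries. Of 29 rows, 19 were at 0 everywhere, 5 more were below detection and 5 were detected, and the clade summed to 21.9 to 39.7 CPM in HKO and 24.6 to 41.1 CPM in WT. Serpinb6a (ENSMUSG00000060147, chr13:33917918-34002794, minus strand), whose product inhibits cathepsin G, was at 8.33, 11.6 and 10.5 CPM in HKO and at 5.28, 5.56 and 7.02 CPM in WT. The groups did not overlap and it was higher in HKO (log2 fold change 0.77, SE 0.19, edgeR adjusted p = 0.0227), with the call lost without HKO 3, WT 1 or WT 2 (adjusted p = 0.0656 to 0.0757). Its exons overlap Nqo2, Ripk1 and 1110046J04Rik on the other strand. Beside it, the summed level of the macrophage markers was 306 to 473 CPM in HKO and 205 to 218 CPM in WT, and the part of this in the Serpinb6a value was not tested.

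Serpinb8, an inhibitor of furin-like proteases, was at 4.57, 13.7 and 3.14 CPM in HKO and at 13.3, 21.3 and 22.0 CPM in WT. HKO 2 was within the WT range and the gene was not called (log2 fold change -1.42, SE 0.50, edgeR adjusted p = 0.0751). Without HKO 2 it was lower in HKO, at -2.30 (SE 0.28, edgeR adjusted p = 0.000978). Serpinb9, the inhibitor with which cells protect themselves from granzyme B, was at 5.05 to 6.63 CPM in HKO and 3.94 to 7.45 CPM in WT (log2 fold change -0.06, edgeR adjusted p = 0.893). Serpinb6b was at 2.69 to 4.83 CPM and 1.67 to 4.94 CPM (log2 fold change -0.02, edgeR adjusted p = 0.982), and neither gene was called. Serpinb1a, an inhibitor of neutrophil elastase, had 11, 27 and 6 counts in HKO and 6, 10 and 6 in WT and was not tested. The 12 neutrophil marker genes summed to 1.32 to 5.70 CPM in HKO and 0.833 to 0.915 CPM in WT, with 3 of them at 0 everywhere.

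Serpinh1 (ENSMUSG00000070436, chr7:99345375-99353230, minus strand) encodes HSP47, the chaperone of collagen in the endoplasmic reticulum. It was at 4.19, 39.5 and 4.10 CPM in HKO 1, 2 and 3 and at 9.39, 5.51 and 7.26 CPM in WT. HKO 2 alone was above WT, while HKO 1 and HKO 3 were below every WT library. The log2 fold change was 1.098 (SE 0.83, edgeR adjusted p = 0.370) with all libraries and -0.83 (SE 0.25, edgeR adjusted p = 0.0439) without HKO 2, so the sign depends on that library. Some collagen genes had the same outlying library: Col3a1 was at 137 CPM in HKO 2 and 8.38 to 18.7 CPM in the other 5, and Col1a1 at 48.9 CPM against 2.01 to 4.11 CPM. Others did not: without HKO 2, Col18a1 was at 0.54 and Col15a1 at -1.27 on the log2 scale, close to their values with all libraries, given below.

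Members just outside the detection threshold included some found almost solely in HKO 2. Serpini2, a serpin of pancreatic acinar cells, had 19 counts in HKO 2 and 0 in the other 5 libraries, and Serpinb2 had 17 and 0. Serpina3i had 40 counts in HKO 2 and 3 to 8 elsewhere. Serpini1, the neuroserpin gene, had 4, 15 and 6 counts in HKO and 4, 10 and 5 in WT, and Serpina5, the protein C inhibitor gene, 13, 9 and 8 in HKO and 14, 8 and 9 in WT. Serpina3b had 7, 7 and 10 counts in HKO and 1, 1 and 3 in WT, and Serpina9 had 22 counts in WT 1 and at most 4 elsewhere. Just inside the threshold were Serpina3h, with 23, 19 and 13 counts in its 3 highest libraries, and Serpinb1a.

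**Figure D5:**
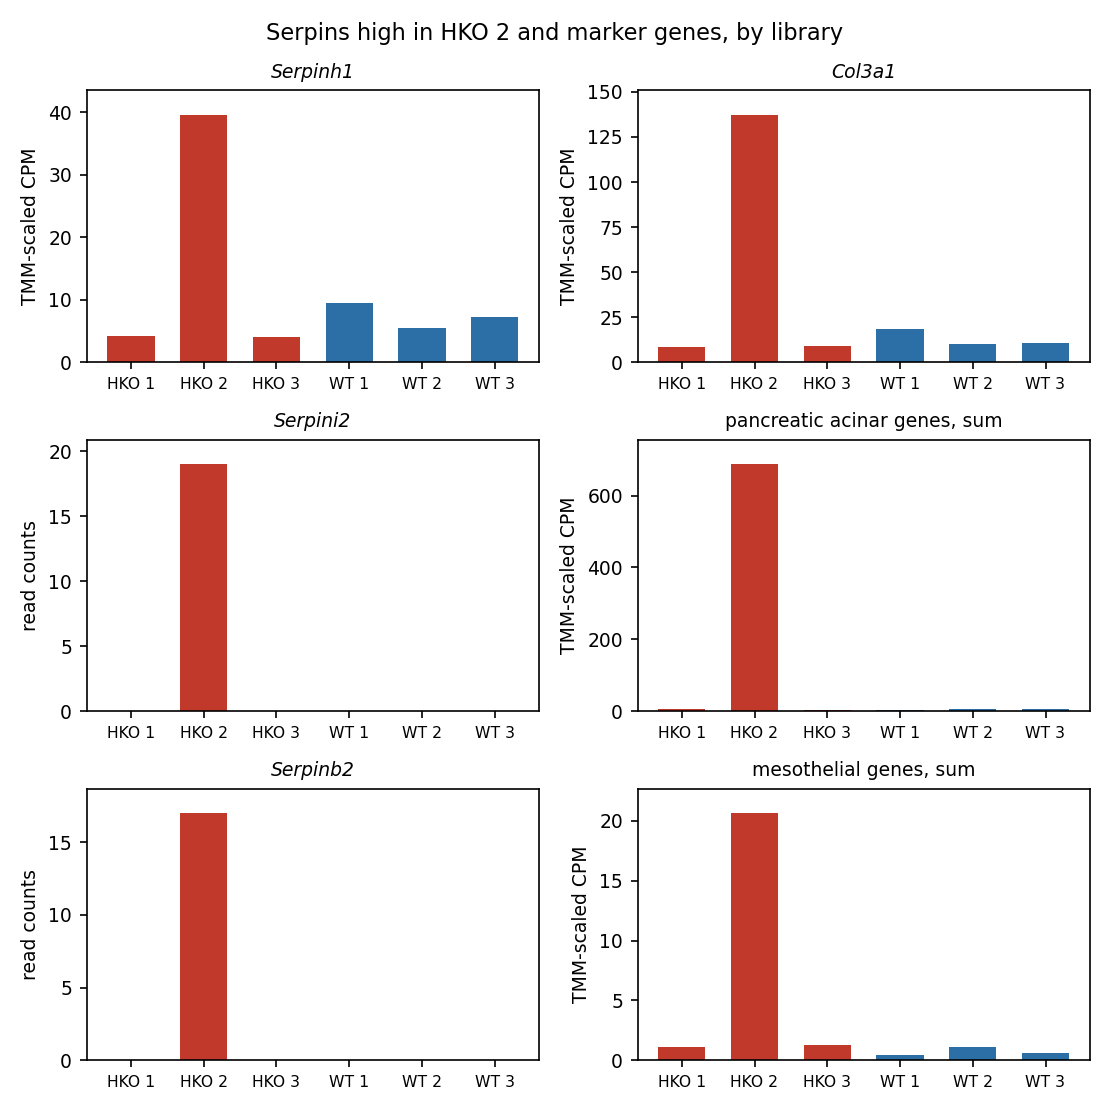
Values by library of 3 serpins (left) and of marker genes of other cell types (right), in TMM-scaled CPM or, for Serpini2 and Serpinb2, read counts. HKO 2 is the highest bar in all 6 panels, for example 39.5 CPM against at most 9.39 CPM for Serpinh1, and 687 CPM against at most 5.37 CPM for the summed pancreatic acinar genes.

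The proteases that plasma serpins restrain did not share 1 direction. Of 30 listed symbols, 19 genes were tested, 4 were higher in HKO and 3 lower, beside 12.1% and 11.2% of all genes. The median log2 fold change of the list was 0.02. F11, the clotting factor XI gene, was lower, at 39.8 ± 2.85 CPM against 105.4 ± 4.01 CPM (SD, n = 3; log2 fold change -1.41, edgeR adjusted p = 0.000207). Prtn3, the neutrophil protease proteinase 3, was lower at 4.62 ± 2.05 CPM against 24.3 ± 0.189 CPM (log2 fold change -2.40, edgeR adjusted p = 0.00121), although its fellow neutrophil proteases Elane and Ctsg were at 0.484 CPM or less in every library and its exons overlap Plppr3 on the other strand. The third gene lower was Hgfac (-0.67), and those higher were F12 (0.56), Proc (0.49), Tmprss6 (0.44) and Hpn (0.38). Thrombin (F2, 0.21, adjusted p = 0.207) and plasminogen (Plg, -0.32, adjusted p = 0.119) were not called.

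Among lysosomal proteases, a group that includes targets of intracellular serpins, 7 of 11 tested were higher in HKO, beside 12.1% of all genes. The other 4 were not called, and the median log2 fold change was 0.52. The largest rises were Ctsf (1.15, edgeR adjusted p = 0.00135), Ctsa (1.01, adjusted p = 0.00196) and Ctss (0.86, adjusted p = 0.00939). The macrophage markers moved with this list (all 13 tested higher, median 0.96, summed 306 to 473 CPM in HKO and 205 to 218 CPM in WT), and their part in it was not tested. Of 16 tested cofactors, receptors and clearance genes, 5 were higher and 2 lower, beside 12.1% and 11.2% of all genes. Procr and Thbd, the endothelial receptor and the thrombin cofactor of the protein C system, were higher (2.55, edgeR adjusted p = 0.00447, and 2.12, adjusted p = 0.0128), though Thbd was at 43.2 CPM in HKO 2 against 13.8 and 15.3 CPM in HKO 1 and HKO 3. Without HKO 2 Thbd was at 1.40 (adjusted p = 0.000846) and Procr at 2.51 (adjusted p = 0.00699). Procr was sparse, with a mean of 1.02 CPM in HKO 1 and HKO 3, which was 5.90 times a still lower WT mean. Beside them, the 13 endothelial marker genes summed to 225 to 704 CPM in HKO and 142 to 215 CPM in WT, the highest sum being that of HKO 2, with 1 of the 13 called higher (Lyve1) and a median log2 fold change of 1.18, or 0.43 without HKO 2. Their part in the Procr and Thbd values was not tested. Agt, a serpin by structure under another name, was higher, at 899 ± 74.3 CPM against 469 ± 32.2 CPM (SD, n = 3; log2 fold change 0.94, edgeR adjusted p = 0.00148). Pnpla2, the lipase that binds the Serpinf1 product, was higher as well (1.53, edgeR adjusted p = 0.000422).

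Protease inhibitors of other families moved both ways, 5 higher and 4 lower of 27 tested, with a median of -0.01. Of all genes tested, 12.1% were higher in HKO and 11.2% lower. A2m, alpha-2-macroglobulin, was lower, with HKO libraries at 0.107, 0.291 and 0.0456 CPM and WT libraries at 11.9, 9.999 and 12.3 CPM (log2 fold change -6.28, SE 0.39, edgeR adjusted p = 0.000183). Tfpi2 (-0.87), Pzp (-0.66) and Kng1 (-0.56) were lower too, and the largest rises were Timp3 (2.39), Timp2 (1.95) and Slpi (1.48). HKO 2 was the highest library for these 3, and without it Timp3 was at 1.77 (3.41-fold in place of 5.27-fold), Timp2 at 1.31 (2.48-fold in place of 3.89-fold) and Slpi at 1.08, each still called. Of 24 tested collagen and collagen-folding genes, 2 were higher and 4 lower, with a median of 0.52. That median became -0.18 without HKO 2, with 2 higher and 3 lower, P4hb no longer being called. The lower ones were Col15a1 (-1.26) and the folding genes Ppib (-0.81), P3h1 (-0.80) and P4hb (-0.45), and the higher ones Col18a1 (0.49) and Mia3 (0.32).

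Several serpins are acute phase genes, made by hepatocytes in response to interleukin 6, and other genes of that response were listed beside them. Of 30 tested, 13 were lower in HKO and 3 higher, beside 11.2% and 12.1% of all genes. The median was -0.43 on the log2 scale. The serum amyloid genes Saa2, Saa1 and Saa3 were lower (-3.88, -2.89 and -1.66, the first pair near-identical genes), as were the fibrinogen genes Fga, Fgb and Fgg (-1.29, -1.40 and -1.36), Orm2 (-1.47), Apcs (-1.37), Lcn2 (-1.22) and the STAT3 target Socs3 (-0.77). Stat3 itself was not called (0.03, edgeR adjusted p = 0.895), nor were Hp (-0.32, adjusted p = 0.334) and Hpx (-0.37, adjusted p = 0.338). The 3 higher genes were the transcription factor genes Cebpd (2.20) and Cebpb (1.27) and the receptor gene Il6ra (0.51). Serpina3n was lower at -1.07, and Serpina3k, at -0.14, was like Hp and Hpx not called. A link between these serpins and the other acute phase genes was not tested.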

How the data were processed

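The authors deposited 1 table that holds, per the file headers, a raw read count for every gene and library and beside it an FPKM value, which corrects for gene length and sequencing depth. The submitters' processing notes name HISAT2 2.0.4, StringTie 1.3.0 and the builds mm10 and GRCm38.p4. Their settings and the handling of reads that match several genes are not stated there. No strand-marking step is described per the labels' protocols.

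From the counts, HKO was compared with WT in R 4.3.3 with edgeR 4.0.16 (TMM, filterByExpr, quasi-likelihood F-test without a block, Benjamini-Hochberg adjustment over 12556 genes, calls at an adjusted p below 0.05). Standard errors are the absolute log2 fold change over the square root of F. Levels are TMM-scaled CPM; counts of at least 10 in 3 libraries defined detection. The fit was tested on counts simulated with the spread estimated from these data. That covers neither the marker reads of HKO 2 nor reads shared by paralogs. Alternatives were RLE scaling, leaving out 13 mitochondrial genes, DESeq2 1.42.0, limma-voom 3.58.1, other count filters, a replicate block, leaving out each library and summing paralogs. GENCODE M21 gave exon overlaps, and Biopython 1.88 aligned transcripts. Of 31 detected serpins, 22 had a promoter window in the RefSeq table (GRCm38.p6). Counts and sums cover all members, of which 1 is not reported here by itself. The other detected members were all named, with full statistics for those called and the 10 most abundant by FPKM; list genes named are those called with the 3 largest changes each way and defining partners, and Hp, Hpx, Tat and Mup17 were chosen after their values were seen. The members and gene lists were chosen with earlier results of these data known.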

Additional observations from a re-analysis of the deposited data

How the results depend on the processing

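Over 30 serpins and the 13 alternatives that fit each gene by itself, 331 of 390 log2 fold changes kept their direction and their side of the threshold, 19 passed it anew, 16 lost it and 24 changed sign. Of those 24 sign changes, 1 passed the threshold, Serpinh1 at -0.83 without HKO 2 (1.098 with all libraries, and up to 1.55 with 1 left out). The others were in genes that were not called either way. With 1 library left out, Serpina1d ranged from -0.11 to 0.077, Serpina11 from -0.40 to 0.079, Serpina3f from -0.29 to 0.99 and Serpina3h from -1.47 to 0.10. Serpinb6b ranged from -0.37 to 0.27, Serpinb9 from -0.31 to 0.10, Serpinc1 from -0.16 to 0.043 and Serping1 from -0.080 to 0.075. Serpinb6b was at 0.070 with limma-voom and 0.060 with the replicate block, and Serping1 at -0.0025 with RLE scaling and with DESeq2, -0.0014 with limma-voom and -0.0004 with the block. The cause of these changes was not tested. Of the 10 called serpins, 6 kept their call under those 13 alternatives, and those that did not were Serpina1a, Serpina3c, Serpina3m and Serpinb6a. With DESeq2, 4 serpins were higher and 10 lower, with limma-voom 4 and 8, with no filter beyond 1 count 4 and 7, with the replicate block 5 and 8, and without mitochondrial genes 3 and 8, against 3 and 7 with RLE scaling, with the other filter and as reported. With the group mean of each gene taken off, the same-number libraries of the groups correlated at -0.00192, 0.00248 and 0.0717. Different-number libraries correlated at -0.0764 to 0.0556. With 3 libraries per group, these values cannot decide whether the numbers pair the libraries. Leaving out 1 library at a time gave 2 to 5 serpins higher (5 without HKO 2) and 4 to 8 lower (4 without HKO 3 or WT 3), and over all genes 722 to 1589 higher and 682 to 1546 lower, lowest without WT 3. With paralogs summed to 1 row each, which gives the single copies no value, 3 rows were lower and 2 higher, and the Serpina3 row was not called (-0.34, adjusted p = 0.286). Sox9 was at -1.02 (adjusted p = 0.0652) with the block and between -1.29 and -0.83 with 1 library left out, not called without HKO 2, HKO 3, WT 2 or WT 3. The values of list genes without HKO 2 were added after seeing the data, and in them the median of the collagen genes changed from 0.52 to -0.18. Depth limits the sparse members: of the 69 rows, 16 had at most 40 counts in any library and no test.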
